A study of Mus musculus with 6 samples.

Results

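The nuclear genes for mitochondrial ribosomal proteins were examined in lists of TAF4b peaks and H3K4me3 regions from mouse prospermatogonia, the germ cells of fetal males. Members were all protein-coding genes of the GENCODE M39 annotation whose symbol is Mrpl or Mrps followed by a number and at most 1 letter, which gave 78 of 21770 protein-coding genes. They lie on 17 chromosomes, and 0 are on X or Y. Membership was set by symbols only and by no measured value, but the gene family was chosen with earlier results of these data known.

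The cells were sorted at E16.5 from male embryos of Oct4-EGFP parents, in which a fluorescent reporter under a pluripotency gene's promoter marks germ cells. The labels give strain C57BL/6 and a wild-type Taf4b genotype for every group, and the mice came from a stock with a mixed B6 and 129S4 name. CUT&RUN, in which an antibody-tethered nuclease releases the DNA around its target for sequencing, was done with antibodies to TAF4b and to H3K4me3 and with IgG. The 6 samples form 3 groups of 2 replicates. IgG, with 2 of these libraries, is not analysed here. No antibody background therefore stands beside the values, and no label says whether replicates came from separate animals.

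Mitochondria keep their own ribosome, which translates the few messages encoded by mitochondrial DNA, all of them for subunits of the oxidative phosphorylation chain. Its proteins are all encoded in the nucleus, made in the cytosol and imported. The large subunit carries the peptidyl transferase centre and the small subunit decodes the message, and both hold proteins shared with bacterial ribosomes beside others found in mitochondria alone. TAF4b is a germ-cell paralogue of TAF4, a subunit of TFIID, the general factor that recognises core promoters for RNA polymerase II. H3K4me3 is a histone mark of promoters that are active or poised.

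The 2 replicates of each antibody differed widely in list length. TAF4b replicate 1 held 7861 peaks and replicate 2 held 848, while the H3K4me3 lists held 64891 and 1730 regions. Every TAF4b peak has its start and end 142 bp apart in replicate 1 and 188 bp apart in replicate 2, and H3K4me3 regions have median widths of 779 and 500 bp. Read totals are not given in the lists, so the depth is unknown, and each list is described separately. An H3K4me3 replicate 1 region covered a start of 7 of 10 male germ cell marker genes (not Nanos2, Nanos3 or Tdrd9), of 5 of 6 Sertoli cell markers (not Amh), of 2 of 6 Leydig cell markers and of 1 of 6 endothelial and blood markers. In replicate 2 these counts were 0, 1, 0 and 0. Over all protein-coding genes a region covered a start of 64.3% in replicate 1 and of 5.49% in replicate 2. Admixture of other cells was not tested, since the mark can also lie at inactive promoters.

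The sequence under a TAF4b peak is given here for Mrps14, and then for members chosen by a motif. Mrps14, which encodes a small-subunit protein shared with bacteria, was the only member named by a promoter peak in both TAF4b lists. Its replicate 1 peak lies wholly upstream of the gene (chr1:160022785-160030541, plus strand, GRCm39) and outside all annotated exons. Its 143 bases follow, read 5′ to 3′ on the gene's strand, with matches to the GC box letters GGGCGG (or their reverse complement) in capitals.
Mrps14 TAF4b replicate 1 peak, chr1:160022625-160022767 (+): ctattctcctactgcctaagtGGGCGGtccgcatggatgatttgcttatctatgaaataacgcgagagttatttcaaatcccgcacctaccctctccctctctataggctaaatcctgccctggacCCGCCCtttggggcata

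A second set is shown because 9 of the 41 TAF4b replicate 1 peaks near members (22.0%, Wilson interval 12 to 36.7) held the letters ATGGCGG, the core of the motif of the zinc-finger factor YY1, on either strand. Of the 5992 such peaks near any protein-coding gene, 214 (3.57%) held them. In 8 of the 9 member peaks the letters start exactly at an annotated start codon, as they did in 55 of the 214. The letters are both a factor's motif and, read as codons, methionine followed by alanine. The 8 sites at start codons are given as 30 bases each on the gene's strand, with the 7 letters in capitals.
Mrpl9, chr3:94350647-94350676 (+): gctccgctgtcATGGCGGcctctgtggctc
Mrpl45, chr11:97206686-97206715 (+): tttgcgcgagcaaaATGGCGGcccccgtac
Mrps30, chr13:118523752-118523781 (-): ggcgggcgaaaATGGCGGcggccaggtatt
Mrps10, chr17:47679821-47679850 (+): agggcaccaagATGGCGGcgcgcgcagcgt
Mrps28, chr3:8988838-8988867 (-): gcgcaggcgtcATGGCGGcgctgtgtaggt
Mrps23, chr11:88095257-88095286 (+): cccaagtggccATGGCGGggagccggctgg
Mrps27, chr13:99481300-99481329 (+): tgcgctccaagATGGCGGctcccatggtgc
Mrps35, chr6:146944282-146944311 (+): cgtcctttatcATGGCGGccgccgcgctgc
All of them lie on the member's own strand, and the first base of the letters is from -2 bp (Mrps23) to 21 bp (Mrps28) from the nearest annotated start.
The remaining site, at Mrpl37, lies 8 bp downstream of a start and not at an annotated start codon.
Mrpl37, chr4:106924016-106924045 (-): cacgggcaaagATGGCGGcgtccaggtaga
In TAF4b replicate 2 the letters were in 2 of 5 member peaks, beside 39 of the 750 peaks near any protein-coding gene. The site at Mrps14 is at the gene's start codon, and that at Mrps18b lies at -273 bp from its nearest start and at no start codon.
Mrps14, chr1:160022817-160022846 (+): tggctggctgggcagacaacATGGCGGcgt

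Over the whole genome, 21 of the 78 members (26.9%, 18.3 to 37.7) have an annotated start codon that begins ATGGCGG, beside 990 of the 21684 protein-coding genes with an annotated start codon (4.57%) and 8 of the 79 cytosolic ribosomal protein genes (10.1%). A TAF4b replicate 1 peak was near a start of 11 of these 21 members (52.4%, 32.4 to 71.7) and of 26 of the other 57 (45.6%, 33.4 to 58.4), so the intervals overlap widely. Across all genes the shares were 52.4% with the letters and 27.8% without them. Among genes with H3K4me3 over a start they were 55.2% and 39.7%. The YY1 letters were singled out after the values of all 10 motifs were seen.

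How many members had a TAF4b peak depended on how a peak is tied to a gene. The lists give each peak a class, and a peak of the promoter class carries the name of 1 transcript. By that name, 22 of 78 members (28.2%, 19.4 to 39) carried a promoter peak for TAF4b in replicate 1, beside 22.7% of all protein-coding genes. In replicate 2 it was 1 member (1.28%, 0.227 to 6.91), against 3.14%. The mean over replicates was 14.7% ± 19.0 (SD, n = 2) for members and 12.9% ± 13.8 (SD, n = 2) for all protein-coding genes. Both were counted in the same lists, and the difference within a list was 5.50 percentage points in replicate 1 and -1.86 in replicate 2. The replicate 1 difference was 2.31 points with the higher-scoring 50% of its peaks and turned to -2.07 with as many top peaks as replicate 2 holds. Among genes with H3K4me3 replicate 1 over a start it turned to -2.69. By position, with a peak centre within 1000 bp of any annotated start, 37 members (47.4%, 36.7 to 58.4) had a peak in replicate 1 against 28.9%, and 4 members (5.13%, 2.01 to 12.5) in replicate 2 against 4.15%. The members' mean was then 26.3% ± 29.9 (SD, n = 2), and the differences within a list were 18.5 and 0.976 percentage points. The replicate 2 interval holds its background under both rules, while that of replicate 1 holds it by name and not by position. A peak lay over a start itself for 31 members in replicate 1 (39.7%, 29.6 to 50.8) against 20%, and for 3 in replicate 2 (3.85%, 1.32 to 10.7) against 2.87%.

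Related gene families were counted by position in the same way. The 79 cytosolic ribosomal protein genes, whose products build the ribosome of the cytosol, had a peak near a start in 56 cases (70.9%, 60.1 to 79.7). The 63 other genes of mitochondrial gene expression had one in 35 cases (55.6%, 43.3 to 67.2). In replicate 2 the counts were 13 of 79 and 2 of 63 (3.17%). The interval for the members lies below that of the cytosolic family in replicate 1 and overlaps it in replicate 2, and it overlaps that of the other mitochondrial genes in both. These are intervals of counting error within 1 library, and no test over samples was run.

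**Figure D1:**
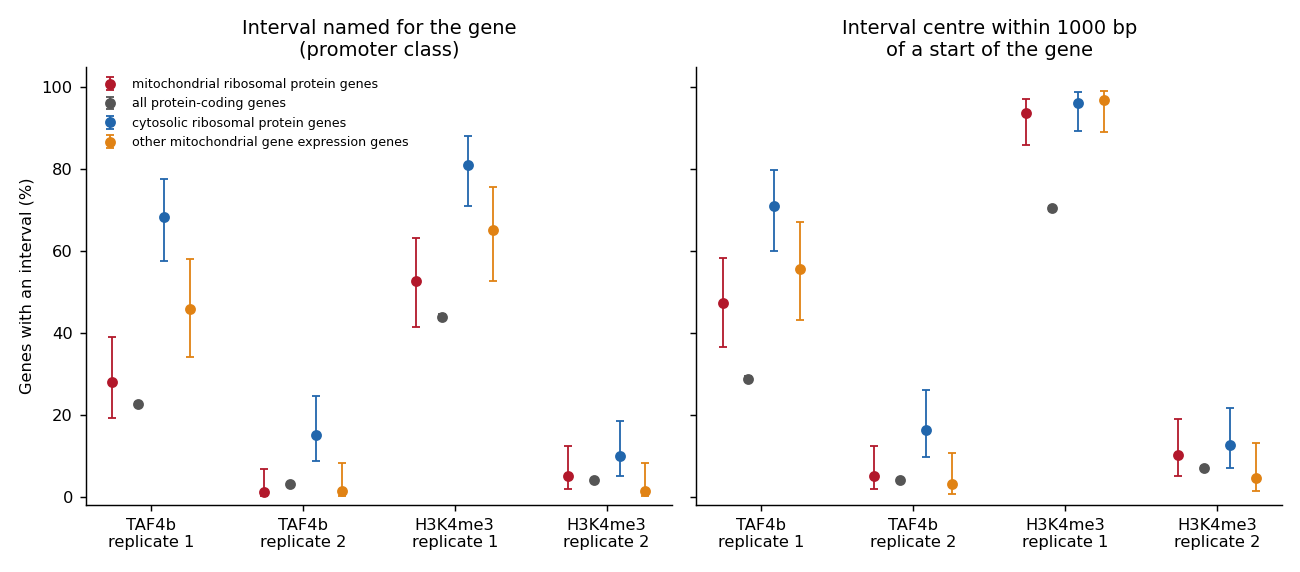
Share of genes (percent, vertical axis) with an interval in each of the 4 lists, by the deposited promoter class (left) and by a centre within 1000 bp of a start (right); bars are 95% Wilson intervals. The members move from 28.2% to 47.4% in TAF4b replicate 1 between the panels, while the cytosolic ribosomal protein genes are at 68.4% and 70.9%.

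Among the subunit groups, counts by position in TAF4b replicate 1 ran from 11 of 28 for large-subunit proteins shared with bacteria (39.3%, 23.6 to 57.6) to 6 of 10 for mitochondria-specific small-subunit proteins (60.0%, 31.3 to 83.2). Mitochondria-specific large-subunit proteins, which here include Mrps18a and Mrps30 despite their names, had 12 of 23 (52.2%, 33.0 to 70.8), and small-subunit proteins shared with bacteria had 8 of 16 (50%, 28 to 72.0). The 4 intervals overlap one another. Those of the 2 groups shared with bacteria hold the 28.9% of all protein-coding genes, and those of the 2 mitochondria-specific groups lie above it. All 4 hold the 40.6% of protein-coding genes with H3K4me3 replicate 1 over a start, though the groups were not limited to such genes. Mrps36, whose product is known as a subunit of the 2-oxoglutarate dehydrogenase complex rather than of the ribosome, had no TAF4b peak and an H3K4me3 replicate 1 region of score 74.5. In replicate 2 the 4 groups had 1 member each, from 1 of 28 (3.57%) to 1 of 10 (10%), beside 4.15% of all protein-coding genes, and each interval holds that share.

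In the large subunit, the members named by a TAF4b replicate 1 promoter peak were Mrpl2, Mrpl4, Mrpl9, Mrpl12, Mrpl16, Mrpl17, Mrpl34, Mrpl39, Mrpl42, Mrpl44, Mrpl45, Mrpl51 and Mrps30. Their scores, which are the authors' values and rank peaks within 1 list only, ran from 10.9 (Mrpl44 and Mrps30) to 28.8 (Mrpl51). Mrpl51 was the only member named by 2 promoter peaks, with scores 28.8 and 11.9, ranks 854 and 5031 of 7861. Mrpl12, the stalk protein that recruits translation factors, had a score of 25.3 at rank 1269. Mrpl34, one of the smallest large-subunit proteins, had a score of 23.8 at rank 1535. Of these 13 members, 0 had a peak in replicate 2. Over all protein-coding genes, 587 of the 4943 named in replicate 1 (11.9%) were also named in replicate 2.

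In the small subunit, the named members were Mrps10, Mrps14, Mrps16, Mrps17, Mrps23, Mrps26, Mrps27, Mrps33 and Mrps35, with scores from 9.93 (Mrps10) to 35.7 (Mrps14). Mrps14 had the highest score of all 22 members in replicate 1, rank 344, and in replicate 2 its score of 109.3 ranked 50 of 848. The centres of its 2 peaks lie 56 bp apart, at 89 bp upstream of the start in replicate 1 (deposited distance -89) and at -33 in replicate 2, and the peaks share 110 bp. Mrps33 followed among small-subunit members with 24.3 at rank 1432.

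Member peaks did not gather at the top of the score order. The best promoter peaks of the 22 members had a median score of 16.6, at a median percentile of 45.5 (interval 18.5 to 71.1) among the best promoter peaks of all protein-coding genes, whose median score was 17.9. By position the median percentile was 52.9 (32.8 to 70.3) over 37 members. In replicate 2 the 4 members with a peak had scores from 48.6 to 109.3, beside a median of 60.7 for all protein-coding genes.

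The distance of peaks from the start was taken first for the promoter class. The deposited distance of the 22 best promoter peaks ran from -167 (Mrpl39) to 15 bp (Mrpl12), and 17 of 22 were upstream (77.3%), beside 81.5% of all protein-coding genes with such a peak. Their median was -17.0 bp (interval -67.0 to -4.00), beside -50 bp (-52.0 to -48.0) for all 4943 genes, which lies within the members' interval. With the higher-scoring 50% of the list the members' median was -57.0 bp, and by the nearest start of the same gene it was -8.00 bp. Of the members' best promoter peaks 0 of 22 lay over 200 bp from the start, beside 429 of 4943 (8.68%). Measured to the nearest of all annotated starts, which leans towards 0 where a gene has many, the medians were -14.0 bp (-36.0 to -5.00) for 37 members and -24.0 bp (-26.0 to -22.0) for 6290 genes, and these intervals overlap. Of all peaks within 1000 bp of a member start, 3 had their centre over 200 bp away: in replicate 1 the second peaks of Mrpl48 (293 bp) and Mrps6 (-206 bp), and in replicate 2 the peak of Mrpl48 (232 bp). By the best peak that makes 1 of the 4 members of replicate 2 (25.0%), beside 9.96% of the 904 protein-coding genes with a peak there.

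**Figure D2:**
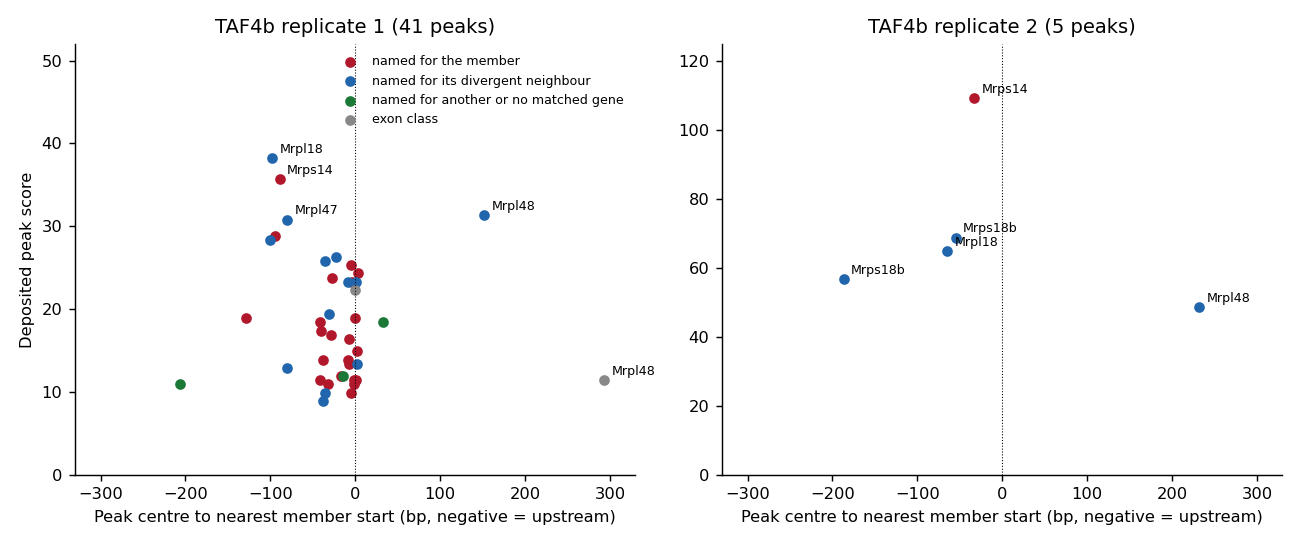
Each TAF4b peak within 1000 bp of a member start, by the distance of its centre from the nearest start of that member (bp, negative upstream) and its deposited score, coloured by the gene that the list names; replicate 1 left, replicate 2 right, with separate score scales. Of the 41 replicate 1 peaks, those at Mrpl18 (38.2) and Mrps14 (35.7) have the highest scores, and all 5 replicate 2 peaks belong to 4 members.

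The gap between class and position came from 15 members near a replicate 1 peak that is not named for them. For 12 of them the list names the gene on the other side of a shared promoter: Mrpl14 (Tmem63b), Mrpl18 (Tcp1), Mrpl30 (Mitd1), Mrpl32 (Psma2), Mrpl37 (Cyb5rl), Mrpl47 (Ndufb5), Mrpl48 (Rab6a), Mrpl50 (Zfp189), Mrpl54 (Apba3), Mrps7 (Gga3), Mrps12 (Sars2) and Mrps18b (Ppp1r10). The others were Mrpl49, whose peak names a transcript that is not in GENCODE M39, Mrps6, whose 2 peaks name Slc5a3, and Mrps28, whose peak has the exon class and its centre 0 bp from a start. Scores of these 15 ran from 8.93 (Mrpl14) to 38.2 (Mrpl18).

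A divergent neighbour, meaning a protein-coding gene on the other strand that starts upstream of the member within 1000 bp, was found for 31 of 78 members (39.7%, 29.6 to 50.8). It was found for 2586 of 21770 protein-coding genes (11.9%, 11.5 to 12.3) and for 17 of 79 cytosolic ribosomal protein genes (21.5%, 13.9 to 31.8). The 31 members form 30 pairs, with 1 to 217 bp between the starts and a median of 27 bp. When only the canonical start of each gene was used, the counts were 14 members (17.9%, 11 to 27.9) and 1099 genes (5.05%, 4.77 to 5.35). With any annotated gene as the neighbour, they were 49 members (62.8%) and 7377 genes (33.9%).

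Of the 30 pairs, 1 joins 2 members and 2 join a member to a gene of the mitochondrial gene expression lists. Mrpl46 and Mrps11, a large-subunit and a small-subunit gene, start 30 bp apart and are the pair of 2 members. Mrps12, the small-subunit protein at the decoding site, is paired with Sars2, the mitochondrial seryl-tRNA synthetase, at 124 bp. Mrpl43 is paired with Twnk, the helicase of mitochondrial DNA replication, at 34 bp. Mrpl36 and Mrpl47 are paired with Ndufs6 (2 bp) and Ndufb5 (217 bp), subunits of respiratory complex I. Of these, Mrps12 and Mrpl47 had TAF4b replicate 1 peaks, with scores 19.4 and 30.8, while Mrpl46, Mrps11, Mrpl43 and Mrpl36 had none in either list. The pairs with complex I genes were picked after the neighbours were seen.

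By position, a TAF4b replicate 1 peak was near 17 of the 31 members with a divergent coding neighbour (54.8%, 37.8 to 70.8), against 60.4% of all such genes. Of the 47 members without one, 20 had a peak (42.6%, 29.5 to 56.7), against 24.6%. The interval for members without a neighbour does not reach its background, whereas that for members with a neighbour holds its own. Among genes that also had H3K4me3 replicate 1 over a start, the shares were 19 of 43 members without a neighbour (44.2%, 30.4 to 58.9) beside 36.1%, and 15 of 29 with one (51.7%, 34.4 to 68.6) beside 63.0%, and both intervals then hold the share of all such genes. With a peak over a start itself, the same genes gave 17 of 43 (39.5%, 26.4 to 54.4) beside 25.2%, where the interval lies above the background, and 12 of 29 (41.4%, 25.5 to 59.3) beside 43.8%. In replicate 2 the counts were 3 of 31 (9.68%, 3.35 to 24.9) against 11.5%, and 1 of 47 (2.13%, 0.377 to 11.1) against 3.16%, where both intervals hold the background. By the deposited name, 4 of the 31 (12.9%, 5.13 to 28.9) had a replicate 1 peak, against 32.3%, an interval below the background. They were Mrpl2, Mrpl4, Mrpl51 and Mrps27. Without a neighbour it was 18 of 47 (38.3%, 25.8 to 52.6) against 21.4%, an interval above it. Among genes with H3K4me3 over a start the shares by name were 4 of 29 (13.8%, 5.50 to 30.6) beside 33.7%, again below, and 17 of 43 (39.5%, 26.4 to 54.4) beside 31.5%, where the interval holds the background.

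**Figure D3:**
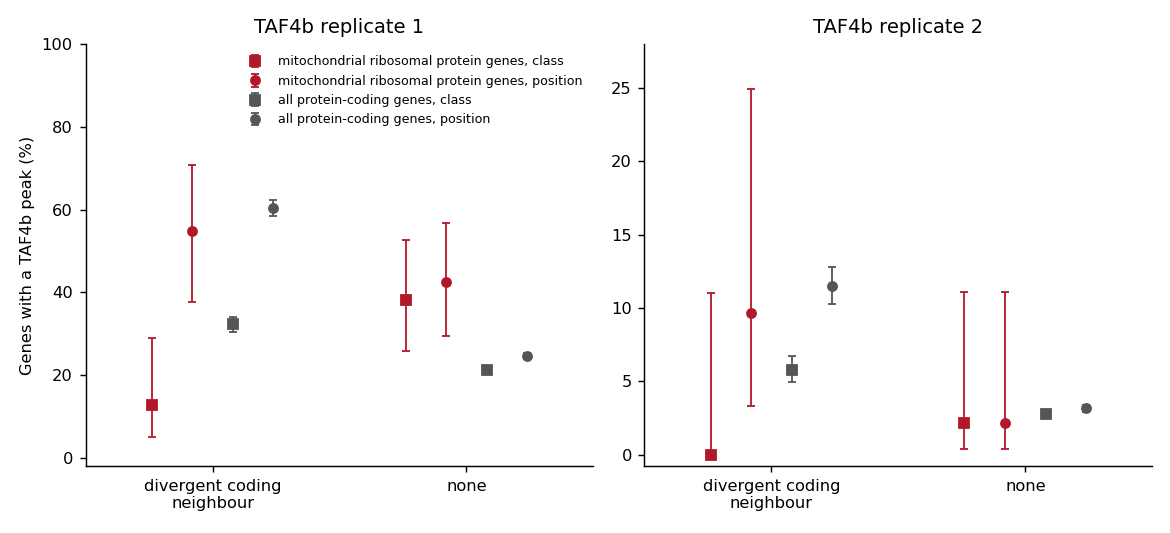
Share of genes (percent) with a TAF4b peak among genes with and without a divergent coding neighbour, by the deposited class (squares) and by position (circles), with 95% Wilson intervals; the 2 replicates have separate scales. For members with a neighbour in replicate 1 the share is 12.9% by class and 54.8% by position, while for those without it is 38.3% and 42.6%; all protein-coding genes are at 32.3% and 60.4% with a neighbour and at 21.4% and 24.6% without.

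Besides Mrps14, 3 members had a TAF4b peak by position in both replicates, and their peaks are named for the divergent neighbour. At Mrpl18, whose protein belongs to the central protuberance of the large subunit, the shared promoter with Tcp1, a chaperonin subunit gene 77 bp away, had scores of 38.2 (rank 237) and 64.8 (rank 327), with centres 33 bp apart. The annotated start of Mrpl18 nearest to these peaks is not its canonical start (chr17:13135718). At Mrpl48 and Rab6a, a Golgi-traffic GTPase gene whose start is 44 bp away, the scores were 31.3 (rank 608) and 48.6 (rank 635), with centres 80 bp apart. These peaks (chr7:100256622-100256764 in replicate 1) lie by an annotated start of Mrpl48 other than its canonical start at 100232329. Near that canonical start only replicate 1 had a peak, with score 11.4. Mrps18b and Ppp1r10, which encodes a nuclear regulator of protein phosphatase 1, start 25 bp apart and had 2 peaks in each list. The first pair of peaks there had scores of 25.8 and 68.8 with centres 19 bp apart, and the second 28.3 and 56.7 with centres 87 bp apart. All 4 members with a replicate 2 peak also had one in replicate 1, so 4 of 37 members of replicate 1 (10.8%) and 4 of 4 of replicate 2 (100%) were in both. Over all protein-coding genes 784 were in both, 12.5% of replicate 1 and 86.7% of replicate 2.

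Nearly all members carried H3K4me3 at a start in replicate 1. A region covered a start of 72 of 78 members (92.3%, 84.2 to 96.4), against 64.3% of all protein-coding genes, and 73 had a region centred within 1000 bp (93.6%, 85.9 to 97.2), against 70.4%. By the promoter class, which names 1 transcript per region, it was 41 (52.6%, 41.6 to 63.3), against 44.0%. Why the class gave fewer members was not tested. In replicate 2 the counts were 7 members covered (8.97%, 4.42 to 17.4) against 5.49%, 8 by position (10.3%, 5.29 to 19.0) against 7.16%, and 4 by class (5.13%, 2.01 to 12.5) against 4.13%. The mean share by position was 51.9% ± 58.9 (SD, n = 2) for members and 38.8% ± 44.7 (SD, n = 2) for all protein-coding genes.

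Member regions were of moderate score. Over starts in replicate 1 they had a median score of 82.8, from 29.8 to 304.1, and a median width of 1359 bp, beside 95.4 and 1469 bp for all protein-coding genes. The median percentile was 38.1 (30.6 to 58.8). Mrpl34 had the highest score, 304.1 at rank 104 of 64891, in a region of 2614 bp. The centre of this region lies at -793 bp from the nearest Mrpl34 start, and the nearest promoter in the list is that of Abhd8. Among members with no TAF4b peak named for them, Mrpl41 (222.1), Mrps34 (202.7), Mrps18b (190.8) and Mrpl50 (161.0) led, followed by the region that Mrpl46 and Mrps11 share (146.1). Mrps18b and Mrpl50 do have TAF4b peaks named for their neighbours. The H3K4me3 regions at Mrps18b and Mrps34 have their centres at -870 and 697 bp from the nearest member start, and the list names them for Mir1894 and Eme2. At Mrpl41 and Mrpl50 the centres lie at -358 and -15 bp.

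The replicate 2 regions lay at Mrpl41 (score 161.7), Mrpl49 (131.4), Mrpl37 (116.2), Mrpl51 and Mrps34 (106.1 each), Mrps23 and Mrps33 (101.1 each) and Mrpl12 (96.0). All 8 also had a replicate 1 region. Of the 4 members with TAF4b in both replicates 0 had an H3K4me3 region in replicate 2, as had 126 of the 784 protein-coding genes with TAF4b in both, while in replicate 1 their regions scored 59.6 (Mrps14), 116.3 (Mrpl18), 131.2 (Mrpl48) and 190.8 (Mrps18b).

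TAF4b peaks at members lay mostly inside H3K4me3 regions of replicate 1. Of the 41 peaks near members in TAF4b replicate 1, 37 shared at least 1 bp with one (90.2%, 77.5 to 96.1), as did 86.5% of the 5992 peaks near any protein-coding gene. The 4 outside were at Mrpl9, Mrpl30, Mrpl54 and Mrps30, with TAF4b scores of 11.4, 12.9, 9.93 and 10.9. The 5 replicate 2 peaks were all inside replicate 1 regions, and 0 were inside replicate 2 regions, beside 91.1% and 12.5% of the 750 replicate 2 peaks near any protein-coding gene. When only genes with H3K4me3 replicate 1 over a start were counted, TAF4b was near 34 of 72 members (47.2%, 36.1 to 58.6) against 40.6% in replicate 1, and 4 of 72 (5.56%, 2.18 to 13.4) against 5.99% in replicate 2. By the deposited name the counts in these genes were 21 of 72 (29.2%, 19.9 to 40.5) against 31.9% in replicate 1 and 1 of 72 (1.39%, 0.246 to 7.46) against 4.52% in replicate 2. All 4 intervals hold their background, and by name both shares are below it. With a TAF4b peak over a start itself, the counts were 29 of 72 (40.3%, 29.7 to 51.8) against 28.3%, an interval above the background, in replicate 1, and 3 of 72 (4.17%, 1.43 to 11.5) against 4.21% in replicate 2. H3K4me3 scores of members with and without TAF4b replicate 1 overlapped, with medians of 85.0 (34 members) and 81.2 (38 members).

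**Figure D4:**
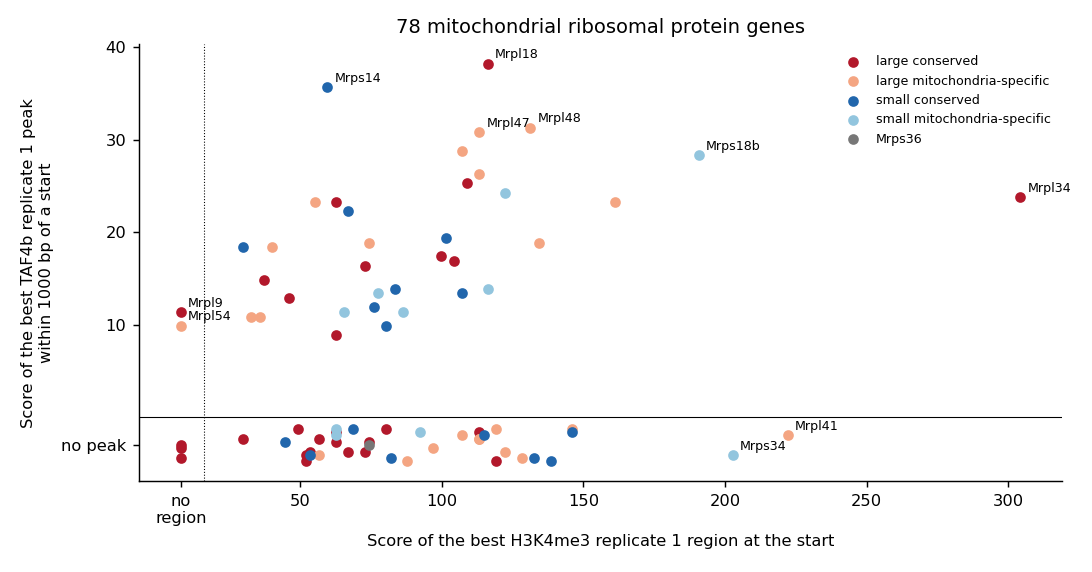
Each of the 78 members by the score of its best H3K4me3 replicate 1 region (horizontal) and of its best TAF4b replicate 1 peak within 1000 bp of a start (vertical), coloured by subunit group; members with no peak or no region are placed in the marked strips, where the vertical spread of the lower strip has no meaning. Mrpl41 (222.1) and Mrps34 (202.7) have high H3K4me3 scores and no TAF4b peak, while Mrpl9 and Mrpl54 have a TAF4b peak and no region.

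Every member falls into 1 of 4 states in the replicate 1 lists, by a TAF4b peak near a start and an H3K4me3 region near or over one. Both TAF4b and H3K4me3 were found at 35 members (44.9%), beside 28.2% of all protein-coding genes. This state does not require overlap, and at Mrpl30 and Mrps30 the TAF4b peak lies outside the H3K4me3 regions. TAF4b alone was found at 2 (2.56%), Mrpl9 and Mrpl54, beside 0.652%. H3K4me3 alone was found at 38 (48.7%), beside 42.5%, and 3 had neither (3.85%), beside 28.6%. The 3 are Mrpl3, Mrpl19 and Mrpl28, all large-subunit proteins shared with bacteria. The 38 with H3K4me3 alone comprise, in the large subunit, Mrpl1, Mrpl10, Mrpl11, Mrpl13, Mrpl15, Mrpl20, Mrpl21, Mrpl22, Mrpl23, Mrpl24, Mrpl27, Mrpl33, Mrpl35, Mrpl36, Mrpl38, Mrpl40, Mrpl41, Mrpl43, Mrpl46, Mrpl52, Mrpl53, Mrpl55, Mrpl57, Mrpl58 and Mrps18a. In the small subunit they are Mrps2, Mrps5, Mrps9, Mrps11, Mrps15, Mrps18c, Mrps21, Mrps22, Mrps24, Mrps25, Mrps31 and Mrps34, and Mrps36 completes them. Mrpl58 is the rescue factor that frees stalled mitochondrial ribosomes. By the deposited class alone 32 members had neither kind of promoter interval in any list (41.0%, beside 49.3% of all protein-coding genes), and 29 of these 32 had one by position. Over all protein-coding genes 10734 had no promoter-class interval in any list, while 6217 had neither mark by position in the replicate 1 lists.

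Proteins of the same ribosome that bear other symbols were looked at beside the members. Of the 5, TAF4b replicate 1 peaks were near Dap3 (score 9.43), a GTP-binding small-subunit protein, Chchd1 (16.9), Aurkaip1 (15.9) and Ptcd3 (12.4), and none was near Gadd45gip1. In replicate 2 none of the 5 had one, beside 4.15% of all protein-coding genes. All 5 had H3K4me3 replicate 1 regions, with scores from 62.6 (Chchd1) to 120.7 (Aurkaip1). Among mitoribosome assembly factors 11 of 20 had a replicate 1 peak (55.0%, 34.2 to 74.2), and among mitochondrial tRNA synthetases 9 of 17 (52.9%, 31.0 to 73.8). Among translation factors it was 6 of 13 (46.2%, 23.2 to 70.9), and among genes of mitochondrial transcription and DNA maintenance 5 of 8 (62.5%, 30.6 to 86.3). Of these 4 intervals, that of the translation factors holds the 28.9% of all protein-coding genes and the others lie above it. All 4 hold the 40.6% of protein-coding genes with H3K4me3 replicate 1 over a start, though the lists were not limited to such genes. Of the genes in these 4 lists only Tfb1m, the rRNA dimethyltransferase of the small subunit (25.8 and 81.0), and Mtrfr, a ribosome rescue factor (42.2 and 60.7), had peaks in both replicates. Over all protein-coding genes 784 (3.60%) had them in both.

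The letters of 10 motifs were searched on both strands from 250 bases before to 50 after the canonical start, and none of the motifs holds another whole. The ETS letters CCGGAAG were in 24 of 78 member windows (30.8%, 21.6 to 41.7), in 10.3% of all protein-coding windows, in 13.9% of those with H3K4me3 replicate 1 over a start and in 30.4% of cytosolic ribosomal protein windows. They were in 8 of the 37 members with a TAF4b replicate 1 peak (21.6%, 11.4 to 37.2) and 16 of the 41 without (39%, 25.7 to 54.3). In the TAF4b replicate 1 peaks themselves, they were in 11 of 41 near members (26.8%, 15.7 to 41.9) and in 13.0% of those near any protein-coding gene. The GC box was in 42.3% of member windows (32.0 to 53.4), in 42.5% of all windows and in 56.3% of those with H3K4me3 replicate 1 over a start, which is above the members' interval. The CCAAT box was in 34.6%, 39.9% and 39.9%. The TATA box letters TATAAA were in 10.3% of member windows (5.29 to 19.0), in 13.2% of all and in 8.42% of those with H3K4me3, so the members lie between the other shares. For the other motifs the share of members is followed by that of all genes and that of genes with H3K4me3 over a start. The NRF1 half-site letters GCATGCG were in 8.97%, 4.69% and 5.74%, and the YY1 letters in 8.97%, 3.97% and 5.15%, with 1 of the 37 members that had TAF4b and 6 of the 41 that did not, and the 1 member is Mrps7, so 0 of the sites printed above from replicate 1 peaks lie in these windows. The GFY letters ACTACAA were in 7.69%, 3.82% and 3.84%. The CRE letters TGACGTC were in 3.85%, 3.98% and 4.84%, the E box letters CACGTG in 6.41%, 7.81% and 9.66%, and the ZBTB33 letters TCGCGAG in 2.56%, 2.32% and 3.16%. Median GC content of the windows was 57.5% for members, 54.3% for all and 58.0% for genes with H3K4me3.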

How the data were processed

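Symbols alone decide which genes are members, but the gene family, the lists and the motifs were chosen with earlier results of these data known. The 4 lists of annotated intervals, 1 per library, were used as deposited. Per the submitters' processing notes, the tools were bcl2fastq 2.20, Trim Galore 0.5.0, FastQC 0.11.5, Bowtie2 2.3.0, SAMtools 1.9 and HOMER 4.10. The H3K4me3 tables name GRCm39 and Ensembl 103, per the file headers. The TAF4b lists name no build; GRCm39 was used for them too, where 98.9% and 99.2% of their transcripts were found in GENCODE M39. For these transcripts the deposited distance matched the distance on GRCm39 within 1 bp for 57.9% and 52.4% of peaks and within 1000 bp for 99.4% and 99.5%, so single starts differ between the annotations. The caller's settings are not given in the sources used here. The peak score is the authors' deposited value, with unstated scaling, and was compared only within 1 list. Deposited gene names were empty, so genes were named through transcript identifiers.

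A promoter peak has the deposited class promoter-TSS and belongs to the gene of the transcript named there. The position rule takes any annotated start of a gene within 1000 bp of the interval's centre. Shares carry 95% Wilson intervals and medians carry 95% order-statistic intervals, which cover counting error in 1 library only. No test was run: each library gives 1 share, there are 2 per antibody, and genes are not replicates. Analyses used Python 3.11.15, numpy 2.4.6, pandas 2.3.3 and matplotlib 3.10.9, and functions were tested on simulated lists. Sequences come from the GRCm39 genome.

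Members named were those with TAF4b in both replicates, the 5 highest scores per list, those with 2 or more promoter peaks, those with TAF4b outside H3K4me3, the 5 highest H3K4me3 scores among members with no TAF4b promoter peak named for them, and those with neither mark, with all 5 mitoribosome proteins of other symbols. Members named only for a state, a neighbour or a motif, and the neighbours, were chosen after their values were seen. Alternatives changed the gene rule, the list cut, the neighbour window and the overlap.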

Additional observations from a re-analysis of the deposited data

How the results depend on the processing

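The values below changed with the rule that ties a peak to a gene and with the length of the list, some only within the interval of the main value. Of the replicate 1 differences below, those of 14.6, 2.31, 3.57 and 6.60 points stayed within it. The share of members with a TAF4b peak in replicate 1, 28.2% by class, was 47.4% by position, 16.7% with the higher-scoring 50% of the list, 1.28% with as many top peaks as replicate 2 holds, 39.7% with a peak over a start, and 41.5% among genes with an H3K4me3 promoter region (37.9% of all such protein-coding genes). By position it was 47.2% among genes with H3K4me3 over a start and 42.6% among genes without a divergent neighbour; these were chosen after seeing the data, as were the peak over a start, the class rule with H3K4me3 over a start, the canonical-start and the position alternatives for neighbours. The difference from all protein-coding genes, 5.50 percentage points in replicate 1, was 18.5 by position, 19.8 with a peak over a start, 14.6 by the gene of the nearest promoter, 2.31 with the higher-scoring 50%, 3.57 among genes with an H3K4me3 promoter region, 6.60 by position among genes with H3K4me3 over a start and 17.9 by position without a divergent neighbour. It reversed to -2.69 by class among genes with H3K4me3 over a start and to -2.07 when the list was cut to the length of replicate 2. In replicate 2 it was -1.86 points, reversed to 0.976 by position and 0.980 with a peak over a start, and was -3.06 among genes with an H3K4me3 promoter region and -3.13 among those with H3K4me3 over a start. Leaving out a TAF4b replicate gave mean shares from 1.28% to 28.2%. The H3K4me3 share was 92.3% in replicate 1 when a region had to cover a start, and 1.28% in replicate 2 with the higher-scoring 50%. Divergent neighbours were found for 62.8% of members with any annotated gene and 17.9% with canonical starts. TAF4b at members with a divergent neighbour, 12.9% in replicate 1, was 51.6% with a peak named for either gene and 54.8% by position. Member TAF4b promoter peaks inside H3K4me3 regions were 91.3% in replicate 1, 13.0% with the other H3K4me3 replicate, and for the 1 peak of replicate 2 moved from 0 to 100%. Why these values moved was not tested beyond the construction of each alternative. Of the 77 recomputed values, which include those for all protein-coding genes, 26 under planned and 12 under added alternatives were counted as the same. The rule was the interval of the main value, except for the mean shares without 1 replicate. Those were set against the SD of the same 2 values, which they always lie within, so their outcome was fixed. No paired test was run; members and all genes were set side by side within each list, which gives the differences above. The depth of the libraries is unknown, and the absence of a peak from a list does not show absence of binding.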
